A study of Drosophila melanogaster with 12 samples.

Results

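The cuticle proteins studied here were the genes whose symbol on the array platform begins with Cpr, Lcp, Ccp84A, Acp65A, Edg or Twdl in the family's numbering, together with Pcp. The platform named 105 such genes, and 76 of them were in the authors' dChip table, among its 7442 genes with 1 symbol. The 76 were 50 Cpr, 15 Twdl, 7 Lcp and 2 Ccp84A genes, with Acp65Aa and Pcp; all 3 Edg genes lay outside that table. Each gene was read from 1 probe set; Lcp65Aa alone had 2, and the one with the higher mean over the 12 arrays was taken. The rule on symbols used no expression value, but that table holds probe sets called Present, so whether a gene was measured here did depend on its expression.

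RNA of whole Drosophila melanogaster larvae was measured on 12 one-colour Affymetrix arrays, in 4 groups of 3. Control larvae carried precise excisions of both P-elements, EP2449(precise excision)/KG08976(precise excision), and the labelled HNF4 null larvae carried 2 deletion alleles, HNF4(del33)/HNF4(del17), the gene of a nuclear receptor. Each genotype was either kept on normal food or, from the late second instar (L2), starved for 24 h on wet paper, and RNA came from the animals that looked healthy and had reached the third instar (L3). All 12 samples are labelled as mid-L3. In RNA of whole animals, fewer epidermal cells and less transcript per cell cannot be told apart. The labels do not say whether the 3 samples of a group came from separate cultures, so p-values measure the spread between these samples, which may be technical.

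The insect cuticle is a layered sheet of chitin fibres and proteins that the epidermis secretes anew at every moult. Most Cpr, Lcp, Ccp84A, Acp65A and Edg proteins, and Pcp, carry the Rebers-Riddiford region, a conserved stretch that binds chitin. Lcp genes were named for the larval cuticle, Acp65Aa for the adult cuticle and Pcp for the pupal cuticle, Edg genes for their dependence on the moulting hormone ecdysone, and the Tweedle (Twdl) family for mutants with short, stout bodies. Cuticle genes of related sequence lie side by side in clusters, and their transcripts come and go in short windows between moults.

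Values are the deposited linear dChip intensities. They compare 1 gene between arrays, not 2 genes with each other. Differences are in log2 units ± the standard error of 1 limma model over all 12 arrays and 9669 probe sets, and a gene was called where the Benjamini-Hochberg adjusted p was under 0.05. Of the 76 genes, 27 had at least 1 group whose mean lay under 250.5, the lowest of the 12 arrays' 25th percentiles, and 11 lay under it in all 4 groups. Differences of such dim genes are uncertain.

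Array medians lay between 483.3 and 551.8. Hnf4 itself was measured at 1207 to 3190 and was not lower in the labelled mutants (0.31 ± 0.080 in fed larvae, adjusted p = 0.13; 0.70 ± 0.080 in starved larvae, adjusted p = 0.00040). The position of its probes with respect to both deletions is not given in the sources used here, so this does not check the labels. Epidermal genes outside the families were well above the dim line, with obst-A, a chitin-binding protein of the epidermis and trachea, at 5806, 5226 and 7374 in control fed larvae.

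The cuticle transcripts also differed among arrays of 1 group. The median SD of the 3 log2 values was 0.232 in control fed larvae for cuticle genes and 0.157 for all probe sets, and in control starved larvae it was 0.239 against 0.088. In control fed replicate 3, 11 cuticle genes (14.5%; 0.776% of all probe sets) were at least 2-fold above the mean of the other 2 arrays and 4 (5.26%; 1.47%) at least 2-fold below it. In control starved replicate 2, 13 cuticle genes (17.1%; 0.538%) were at least 2-fold lower than in the other 2 arrays. In mutant starved replicate 2, 5 (6.58%; 0.755%) were at least 2-fold higher. For part of the results that rest on these arrays, values without them are given below. Others also moved over the settings tried, such as Lcp65Ag3 with starvation in controls (-2.10 to -1.28) and Lcp9 in the mutants (-4.63 to -3.28).

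**Figure D1:**
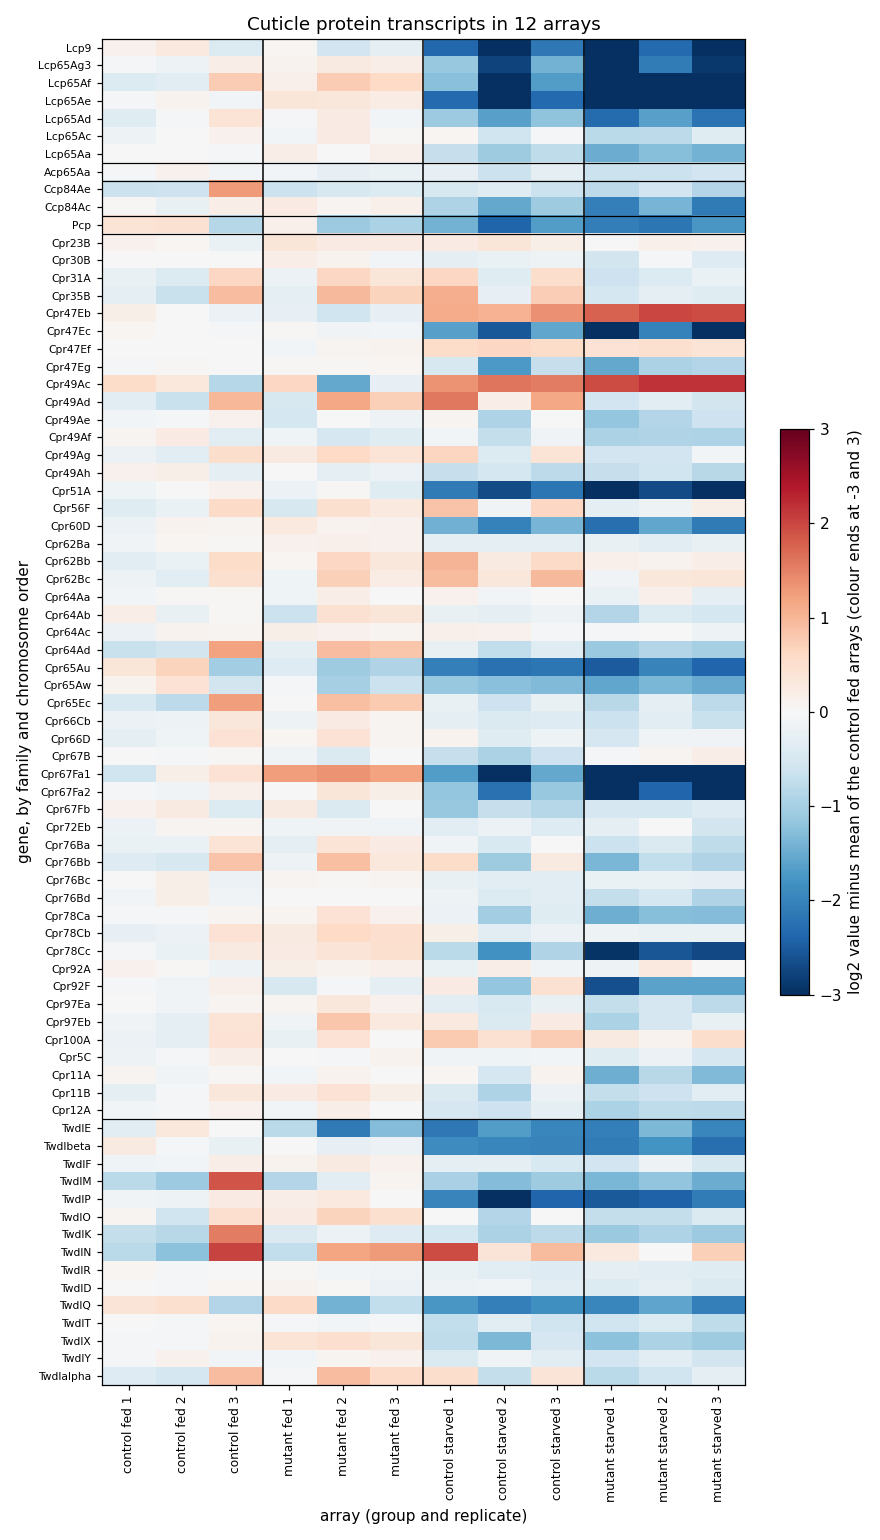
Heat map of the 76 cuticle genes (rows, by family and chromosome order) in the 12 arrays (columns, 3 per group); colour is the log2 value minus that gene's mean in control fed larvae. The starved columns are mostly blue, darkest in the Lcp rows and in a few Cpr rows of the mutant starved arrays, while Cpr47Eb and Cpr49Ac are red there.

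In control larvae, 37 of the 76 measured cuticle transcripts were lower and 7 higher in starved than in fed animals. The share called, 57.9%, was below the 68.2% of all probe sets, but 48.7% were called lower where 32.1% of all probe sets were, and 9.21% called higher where 36.1% were. The median of the 76 differences was -0.324, beside 0.031 over all probe sets. Falls of at least 4-fold were made by 7 cuticle genes, which is 9.21% of them, beside 0.931% of all probe sets.

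Of the 7 larval Lcp genes 6 fell, and their median of -1.78 was the lowest of the families with over 2 measured genes. Lcp65Ae, a larval cuticle gene of the 65A cluster, read 8526, 9467 and 8307 in control fed arrays and 1739, 585 and 1734 in control starved arrays. The groups did not overlap, and the difference was -2.86 ± 0.40 (adjusted p = 9.8e-05). Lcp9, a larval cuticle gene outside that cluster, went from 16770, 18680 and 11450 to 3011, 1618 and 3462. This was a difference of -2.58 ± 0.58 (adjusted p = 0.0024), again without overlap. Lcp65Ag3 read 16020, 14900 and 18960 in fed and 7533, 2413 and 6163 in starved controls, a difference of -1.78 ± 0.37. Its neighbours include copies of nearly the same sequence, so its probes may bind their transcripts too. Lcp65Af (-2.12 ± 0.50), Lcp65Ad (-1.32 ± 0.23) and Lcp65Aa (-0.83 ± 0.10) also fell. Lcp65Ac was not called, at 12320, 13930 and 15060 in fed and 14340, 9062 and 13360 in starved controls (-0.19 ± 0.18, adjusted p = 0.35; 0.01 without control starved replicate 2).

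Among the Cpr genes, 19 of 50 fell and 7 rose in starved controls. The 38.0% that fell lay near the 32.1% of all probe sets, and the 14% that rose lay below the 36.1%. Cpr51A read 1787, 1986 and 2153 in fed and 449.7, 306 and 436 in starved controls, a difference of -2.33 ± 0.18 (adjusted p = 1.9e-06). Cpr47Ec went from 20710, 19820 and 19070 to 6443, 3387 and 6723 (-1.91 ± 0.38). Both were high in every fed control array and low in every starved one. Cpr67Fa1 fell by 2.12 (SE 0.42) and its neighbour Cpr67Fa2 by 1.51 (SE 0.39). Cpr65Au, which was dim in the starved larvae, fell from 562, 695 and 212 to 105, 92.8 and 96.8, a difference of -2.15 ± 0.36.

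The 7 rises in starved controls were all Cpr genes. Cpr49Ac was highest, at 2581, 2195 and 986 in fed and 4481, 5364 and 5154 in starved controls, a difference of 1.49 ± 0.46 (adjusted p = 0.014). Its lowest fed value was in control fed replicate 3, and without that array the difference was 1.07 and was not called (adjusted p = 0.056). Cpr47Eb went from 2825, 2488 and 2233 to 5458, 5194 and 6511, a difference of 1.19 ± 0.13 (adjusted p = 1.9e-05) with no overlap. Smaller rises were called for Cpr62Bc (0.75 ± 0.27), Cpr100A (0.67 ± 0.21), Cpr62Bb (0.62 ± 0.24), Cpr47Ef (0.58 ± 0.069) and Cpr23B (0.26 ± 0.099). Of these 5, Cpr47Ef kept its call whichever array was left out. Cpr100A lost it without control fed replicate 1 or 2 (0.58 and 0.53), Cpr62Bb and Cpr62Bc each without control fed replicate 1 or 2 or control starved replicate 1 or 3 (0.42 to 0.68), and Cpr62Bb also without mutant fed replicate 3 or mutant starved replicate 1 (0.62 for each). Cpr23B lost it without control fed replicate 3 (0.16) or control starved replicate 1 or 2 (0.27 and 0.21).

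Of the families of 1 or 2 measured genes, Pcp, whose gene lies in an intron of the purine synthesis gene Gart, fell from 1749, 1805 and 725 in fed controls to 489, 249 and 412 in starved ones (-1.84 ± 0.40, adjusted p = 0.0021). Ccp84Ac fell from 1074, 893 and 1192 to 554, 359.6 and 496 (-1.18 ± 0.20), while Ccp84Ae was not called (-0.50 ± 0.40, adjusted p = 0.28). Ccp84Ae read 290.5, 297 and 1104 in fed and 327, 354 and 293 in starved controls, and without control fed replicate 3 its difference turned to 0.14 (adjusted p = 0.29). Acp65Aa fell by 0.39 (SE 0.11), or by 0.25 without control starved replicate 2. Leaving out control starved replicate 2 also lowered the size of the falls of Cpr47Eg from -0.96 to -0.59 and, with loss of the call, of Cpr78Ca from -0.54 to -0.28 and of Cpr11B from -0.51 to -0.30. Leaving out 1 array ended 11 of the 44 calls. Without control fed replicate 3 the counts were 8 rises and 35 falls, and without control starved replicate 2 they were 7 and 33.

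In the labelled mutants, 53 of the 76 cuticle transcripts were lower and 3 higher in starved than in fed animals. That is 69.7% called lower beside 38.3% of all probe sets, and 3.95% called higher beside 37.5%. The median difference was -0.726, beside -0.042 over all probe sets, and 13 cuticle genes (17.1%, beside 1.41% of all probe sets) fell at least 4-fold. All 7 Lcp genes fell, with a median of -2.92, as did 32 of 50 Cpr genes, 11 of 15 Tweedle genes, Pcp, Acp65Aa and Ccp84Ac. Without control fed replicate 3 the counts were 3 rises and 60 falls, and without mutant starved replicate 2 they were 3 and 52. Leaving out 1 array ended 8 of the 56 calls.

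The steepest falls took transcripts that were bright in fed mutants to low values. Cpr67Fa1 read 12830, 13650 and 12410 in fed and 302, 616 and 301 in starved mutants, a difference of -5.08 ± 0.42 (adjusted p = 1.3e-06). Lcp65Af went from 11890, 18190 and 16260 to 367, 541 and 686, which was -4.88 ± 0.50. Lcp65Ae, beside it on the chromosome, went from 11340, 11100 and 10250 to 244, 624 and 365, which was -4.83 ± 0.40. In all 3 genes every starved value was far below every fed value. Lcp9 read 16030, 10340 and 12610 in fed and 467, 3040 and 569.6 in starved mutants (-3.78 ± 0.58). Its starved replicate 2 stood far above the other 2. Cpr67Fa2 (-3.58 ± 0.39), Cpr78Cc (-3.10 ± 0.23), Cpr47Ec (-3.03 ± 0.38), Lcp65Ag3 (-2.92 ± 0.37), Cpr51A (-2.88 ± 0.18), TwdlP (-2.50 ± 0.27), Cpr60D (-2.16 ± 0.20) and Lcp65Ad (-2.09 ± 0.23) completed the 12 largest falls.

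The 3 rises in starved mutants were also called in starved controls. Cpr49Ac rose from 2713, 609 and 1499 to 6943, 8023 and 7937 (2.49 ± 0.46, adjusted p = 0.00053), although its fed values were far apart. Cpr47Eb rose from 2117, 1653 and 2124 to 8556, 10070 and 9752 (2.27 ± 0.13, adjusted p = 1.1e-07). Cpr47Ef, which was dim in fed larvae, rose by 0.40 (SE 0.069).

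Side by side, 34 cuticle genes were called lower and 3 higher in both genotypes, 19 were called lower in the mutants and not called in controls, 3 lower and 4 higher in controls and not called in the mutants, and 13 were called in neither. As shares of the 76 genes, 44.7% were lower and 3.95% higher in both, beside 29.4% and 32.5% of all probe sets, and 25% were lower in the mutants alone, beside 8.72%. None was higher in the mutants alone, beside 4.85%. The other 3 shares were 3.95% (lower in controls alone), 5.26% (higher in controls alone) and 17.1% (neither), beside 2.64%, 3.40% and 18.2%. No gene was called in opposite directions. The 4 that were called higher in controls alone were Cpr23B, Cpr62Bb, Cpr62Bc and Cpr100A, and the 3 lower in controls alone were Cpr67B, Cpr67Fb and TwdlE. These counts do not test whether the genotypes differ. Across the 76 genes the 2 differences, which share no array, correlated with r = 0.788, and across all probe sets with r = 0.916; genes are not independent replicates.

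**Figure D2:**
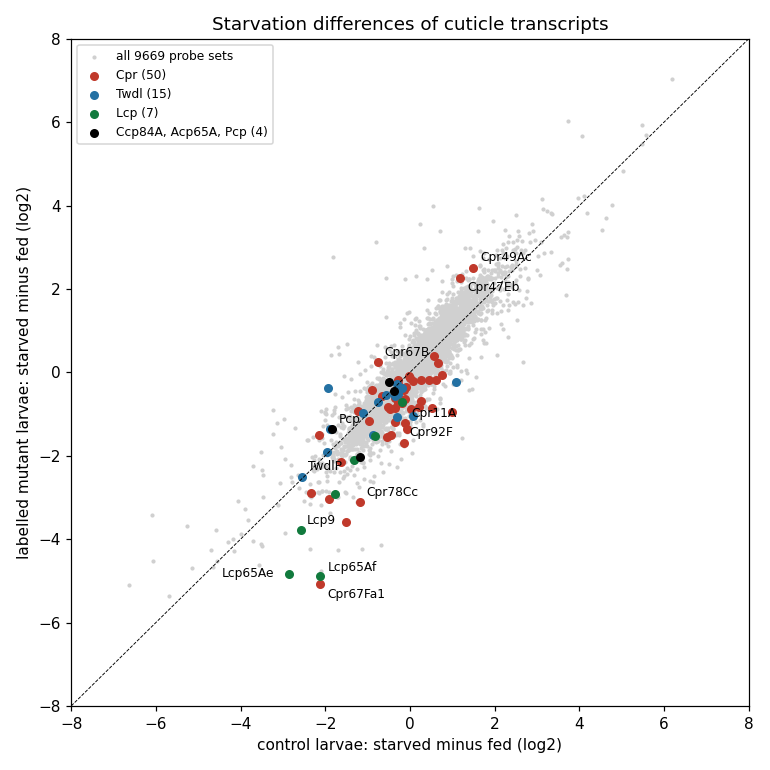
Starved minus fed difference (log2) in control larvae (horizontal) against labelled mutant larvae (vertical) for the cuticle genes, coloured by family, over all 9669 probe sets in grey; the dashed line marks equal differences. Lcp65Ae, Lcp65Af and Cpr67Fa1 lie lowest among the cuticle genes, below -4.8 in the mutants, and Cpr67B lies above the line, with a fall in controls alone.

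The test of the difference itself asked whether the starved minus fed difference of a transcript was another in the mutants than in the controls. It called 6 of the 76 genes (7.89%, beside 2.59% of all probe sets), 4 with a lower (5.26%, beside 0.765%) and 2 with a higher response in the mutants (2.63%, beside 1.82%). In 57 of the 76 genes the estimate was below 0, beside 5145 of 9669 probe sets, and its median was -0.434 beside -0.019 over all probe sets. The fed arrays enter this test as much as the starved ones.

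Cpr67Fa1 had the largest difference between the responses, -2.96 ± 0.59 (adjusted p = 0.032). It read 3534, 6091 and 7232 in control fed, 12830, 13650 and 12410 in mutant fed, 1679, 607 and 1859 in control starved and 302, 616 and 301 in mutant starved arrays. The mutant arrays were thus the highest of the fed larvae and, with 1 overlap, the lowest of the starved larvae. The sequence of Cpr67Fa1 is close to that of its neighbour Cpr67Fa2, whose transcripts its probes may bind, and Cpr67Fa2 was not called in this test (-2.06 ± 0.55, adjusted p = 0.076; called at -2.43 without control starved replicate 2 and at -2.57 without mutant starved replicate 2). Cpr78Cc read 4523, 4088 and 5693 in control fed, 5629, 6158 and 6568 in mutant fed, 2685, 1345 and 2511 in control starved and 612, 803 and 727 in mutant starved arrays, with the mutant starved values lowest. The responses differed by -1.93 ± 0.33 (adjusted p = 0.014). Cpr11A stayed at 5076, 4495 and 4942 in control fed and 4997, 3404 and 5215 in control starved arrays, but read 4555, 5188 and 4788 in mutant fed and 1751, 2711 and 1937 in mutant starved arrays (-1.09 ± 0.25, adjusted p = 0.048). Lcp65Aa fell in both genotypes and further in the mutants (-0.68 ± 0.15, adjusted p = 0.040).

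The higher responses in the mutants were those of Cpr47Eb and Cpr67B. Cpr47Eb rose in both genotypes and further in the mutants, by 1.09 ± 0.18 (adjusted p = 0.015). Cpr67B fell in starved controls, from 5513, 5424 and 5626 to 3442, 2882 and 3567 (-0.75 ± 0.12, adjusted p = 0.00029). In the mutants it read 5158, 4081 and 5511 fed and 5260, 5879 and 6356 starved, which was not called (0.25 ± 0.12, adjusted p = 0.079), and the responses differed by 1.00 ± 0.17 (adjusted p = 0.016).

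These 6 calls rest on few arrays. Leaving out 1 array at a time gave 2 to 13 calls among the 76 genes, with 13 without control fed replicate 3 (3 higher, 10 lower) and 13 without control starved replicate 2 (2 and 11), and 20 (3 and 17) when mutant starved replicate 2 and control fed replicate 3 were left out together. The same counts over all probe sets are not given here. Cpr47Eb and Cpr78Cc kept the call whichever array was left out, and Cpr67B lost it without mutant starved replicate 3 (0.94, adjusted p = 0.051). Cpr67Fa1, Cpr11A and Lcp65Aa lost it when any 1 of 9 arrays was left out (all but control fed replicate 3 and replicate 2 of both starved groups), at -3.05 to -2.66, -1.14 to -0.96 and -0.73 to -0.60.

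In starved larvae, 11 cuticle transcripts were lower and 2 higher in the labelled mutants than in controls. The share called was 17.1%, beside 7.61% of all probe sets; 14.5% were lower and 2.63% higher, beside 3.70% and 3.91%. The median of the 76 differences was -0.298, beside -0.012 over all probe sets, and 65 of 76 were below 0, beside 5128 of 9669 probe sets. Of the 11 lower genes, 9 (81.8%) showed no overlap between the groups, beside 98.3% of all probe sets called lower. Called or not, 21 cuticle genes (27.6%) were lower in the mutants without overlap, beside 14.4% of all probe sets. Of the 11, 9 had an estimate above 0 in fed larvae, as had 51 of all 76 cuticle genes. Of the 49 genes with no dim group, 9 were lower and 2 higher.

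Among the Lcp genes, Lcp65Af showed the largest difference of all cuticle genes, -2.26 ± 0.50 (adjusted p = 0.020), with 4490, 997 and 3345 in control starved and 367, 541 and 686 in mutant starved arrays. The groups did not overlap. Lcp65Ae read 1739, 585 and 1734 in starved controls and 244, 624 and 365 in starved mutants (-1.66 ± 0.40, adjusted p = 0.028). Here the lowest control array, replicate 2, lay below the highest mutant array, also numbered 2. Lcp65Aa differed by less, -0.56 ± 0.10 (adjusted p = 0.0077), but its values of 2109, 1622 and 1995 in controls did not overlap those of 1197, 1401 and 1275 in the mutants. The other 4 Lcp genes had estimates of -1.46 (Lcp9), -0.95 (Lcp65Ag3), -0.74 (Lcp65Ad) and -0.46 (Lcp65Ac) with overlapping groups and were not called (adjusted p = 0.18, 0.17, 0.078 and 0.17). All 4 were called when 1 array was left out. Without mutant starved replicate 2, Lcp9 was at -2.31 (adjusted p = 0.0021) and Lcp65Ad at -0.95 (0.025), and Lcp65Ad was also called without control fed replicate 3 (-0.74, 0.041). Without control starved replicate 2, Lcp65Ag3 was at -1.45 (0.0088) and Lcp65Ac at -0.66 (0.032). Other arrays moved the estimates the other way: Lcp9 was at -0.96 without mutant starved replicate 1, and Lcp65Ag3 at -0.62 without control starved replicate 1.

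Of the 50 Cpr genes, 8 were lower and 2 higher in starved mutants. Cpr67Fa2 read 5498, 2599 and 5521 in starved controls and 730.3, 2346 and 914 in starved mutants (-1.89 ± 0.39, adjusted p = 0.014). Cpr92F read 1111, 419 and 1278 in starved controls against 150.2, 306 and 307 in starved mutants (-1.80 ± 0.38, adjusted p = 0.016). In both genes control starved replicate 2 was the lowest control array, and it still lay above every mutant array. Cpr67Fa1 differed by -1.69 ± 0.42 (adjusted p = 0.032), with 1 overlap. Cpr78Cc read 2685, 1345 and 2511 in starved controls and 612, 803 and 727 in starved mutants (-1.55 ± 0.23, adjusted p = 0.0022), and its neighbour Cpr78Ca read 753, 413 and 662 in the controls and 311, 355 and 347 in the mutants (-0.81 ± 0.18, adjusted p = 0.023). Both sets of values were apart. Cpr11A (-1.09 ± 0.18, adjusted p = 0.0041), Cpr51A (-0.73 ± 0.18, 0.037) and Cpr76Bd (-0.42 ± 0.11, 0.043) were lower too. The mutant starved group of Cpr51A was dim, and so were both starved groups of Cpr76Bd (means of 229.8 in controls and 172.0 in mutants).

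The 2 higher genes in starved mutants were Cpr67B, at 3442, 2882 and 3567 in starved controls and 5260, 5879 and 6356 in starved mutants (0.82 ± 0.12, adjusted p = 0.0023), and Cpr47Eb, at 5458, 5194 and 6511 in the controls and 8556, 10070 and 9752 in the mutants (0.73 ± 0.13, adjusted p = 0.0068). Neither overlapped between the genotypes. No Tweedle, Ccp84A, Acp65A or Pcp transcript was called. The smallest adjusted p among the 15 Tweedle genes was 0.32, and 0 of them had an unadjusted p under 0.05, beside 1955 of the 9669 probe sets. TwdlX was called without control starved replicate 2 (-0.45, adjusted p = 0.045).

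The count of 13 was 20 without control starved replicate 2 (2 higher, 18 lower), 18 without mutant starved replicate 2, 7 without mutant starved replicate 3 (2 and 5), and 5 without control starved replicate 1 or 3 or mutant starved replicate 1 (2 and 3 each). Counts over all probe sets without these arrays are not given here. The calls of Cpr47Eb, Cpr67B, Cpr78Cc, Cpr11A and Lcp65Aa held whichever array was left out. Those of Cpr51A, Cpr67Fa1, Cpr67Fa2, Cpr76Bd, Cpr78Ca, Cpr92F, Lcp65Ae and Lcp65Af were each lost without control starved replicate 1 or 3 or mutant starved replicate 1, and all of these but Cpr92F and Lcp65Af also without mutant starved replicate 3; without 1 of these arrays Lcp65Af was at -2.04 to -1.83 and Cpr67Fa2 at -1.71 to -1.55. Cpr76Bd also lost its call without any 1 mutant fed array (-0.42), Cpr51A without control fed replicate 2 or mutant fed replicate 1 (-0.73), and Cpr67Fa1 without mutant fed replicate 3 (-1.69).

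**Figure D3:**
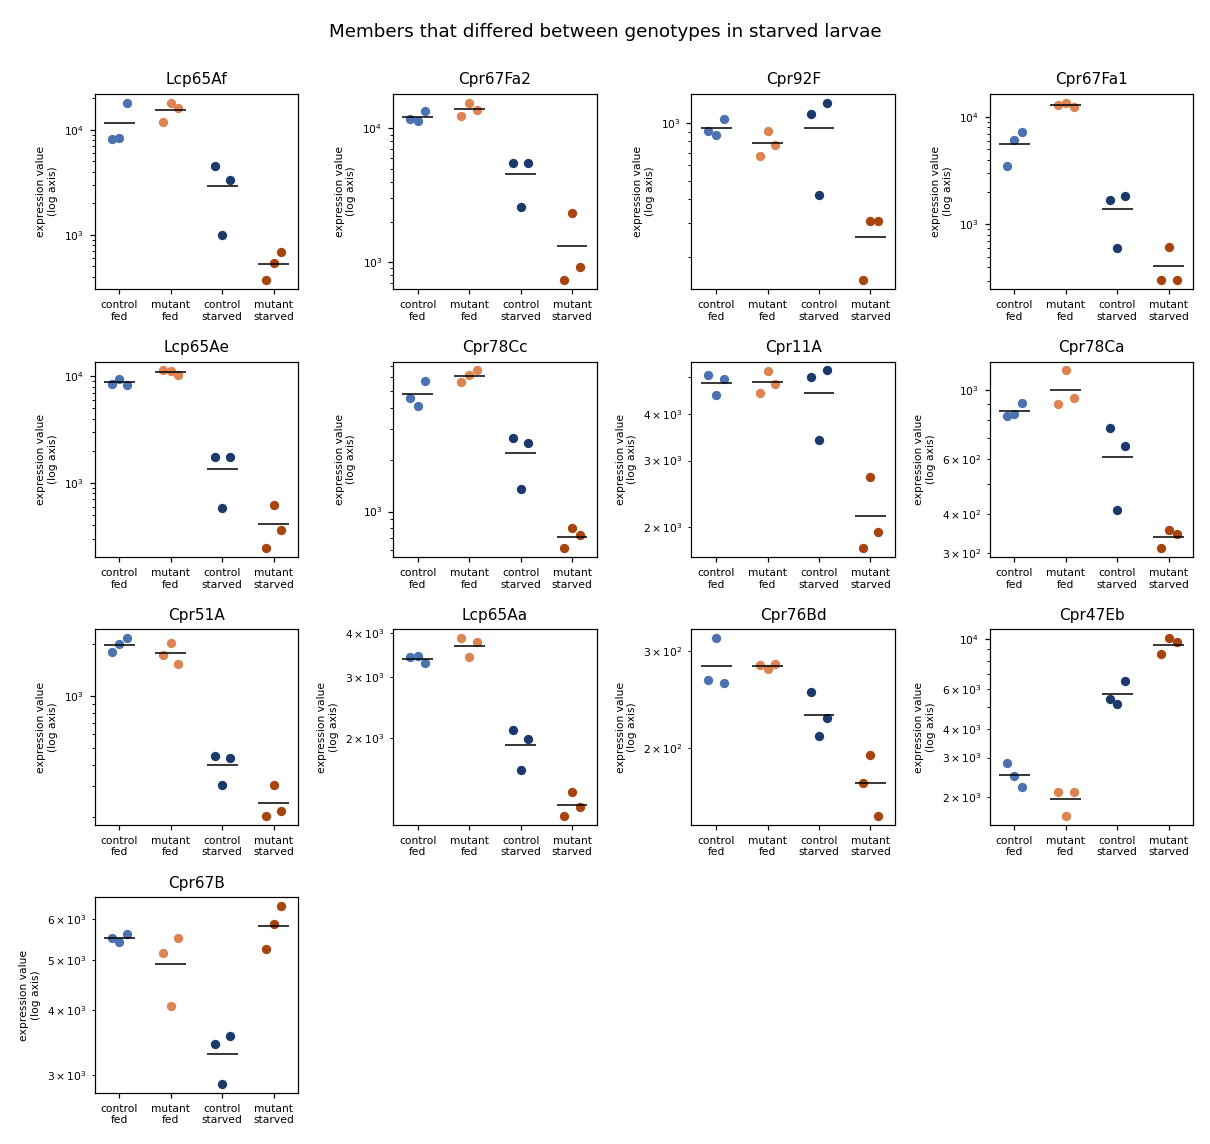
Values of the 13 cuticle genes called between genotypes in starved larvae, in each of the 12 arrays (points; log axis, different in each panel), with the group's arithmetic mean as a line. In 11 panels the mutant starved points lie lowest on average, and in those of Cpr47Eb and Cpr67B they lie higher than the control starved points.

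In fed larvae no cuticle transcript was called between the genotypes (0 of 76 by limma, beside 1.05% of all probe sets, 0.186% higher and 0.869% lower). An unadjusted p under 0.05 was held by 8 of the 76, beside 1071 of the 9669 probe sets. The median of the 76 differences was 0.07, beside -0.005 over all probe sets. Cpr67Fa1 was the highest estimate, 1.27 ± 0.42 (adjusted p = 0.27); its mutant fed values did not overlap the control values, and over all the settings tried its adjusted p lay between 0.087 and 0.63. The lowest estimate was that of the Tweedle gene TwdlE, -1.41 ± 0.30 (adjusted p = 0.057), at 106, 165 and 132 in control and 75, 30.6 and 53.5 in mutant fed arrays, all of them dim. It was called without mutant fed replicate 1 (adjusted p = 0.026), with a floor of 64 and under both kinds of array weights (0.0044 to 0.026 over the 4 settings). Without control fed replicate 3, 3 genes were called, Cpr65Au at -1.31 (adjusted p = 0.0070), Cpr65Ec at 1.18 (0.042) and Cpr78Cb at 0.67 (0.039).

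Part of the cuticle genes spread in a like way among the control fed and among the mutant fed arrays. The genes at least 2-fold higher in control fed replicate 3 than in its 2 fellows were TwdlN (3.03), TwdlM (2.83), TwdlK (2.31), Ccp84Ae (1.91), Cpr65Ec (1.87), Cpr64Ad (1.81), Cpr49Ad (1.496), Cpr35B (1.40), Twdlalpha (1.38), Cpr76Bb (1.30) and Lcp65Af (1.13), all in log2. The genes at least 2-fold lower in control fed replicate 3 were Cpr65Au (-1.56), TwdlQ (-1.31), Pcp (-1.29) and Cpr49Ac (-1.27). In the mutant fed group each array was set against the mean of the other 2 mutant arrays, so that no control array entered. The 11 genes had medians of -0.806 in replicate 1 (below 0 in 11 of 11), 0.649 in replicate 2 (above 0 in 11) and 0.309 in replicate 3 (above 0 in 9). The 4 genes had medians of 1.34, -1.02 and -0.243. Over all 76 cuticle genes the medians were -0.11, 0.111 and -0.022. TwdlN, for example, read 897, 668 and 6335 in control fed and 929, 3549 and 3765 in mutant fed arrays, while Pcp read 1749, 1805 and 725 in control fed and 1463, 616 and 678 in mutant fed arrays. The values of control fed replicate 3 chose the genes and are a description, and the mutant values were not tested. The 3 mutant values of a gene sum to 0 by construction, so they do not agree separately. Like values for the other probe sets that stood apart in control fed replicate 3 are not given here. A pattern particular to cuticle genes cannot be read from this.

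Lsp2, a storage protein of the fat body whose transcript rises during the third instar, also separated the fed arrays. It was low where most of the 11 genes were high. It read 18370, 16370 and 290.4 in control fed and 13860, 328 and 780 in mutant fed arrays, and between 287.3 and 374 in all 6 starved arrays. Of the 8 measured third-instar genes, Lsp2 was the 1 for which these 3 arrays (control fed replicate 3 with replicates 2 and 3 of the mutants) all lay below the other 3 fed arrays, and for 0 did they all lie above. Sgs7, a glue protein gene of the salivary gland, read 370.4, 384 and 422 in control fed and 834, 401 and 379.8 in mutant fed arrays, with mutant fed replicate 1 alone apart. Lsp2 was the 1 measured gene of 5 fat body markers. The part of larval age or of fat body RNA in the differences among fed arrays, or between fed and starved ones, was not tested.

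**Figure D4:**
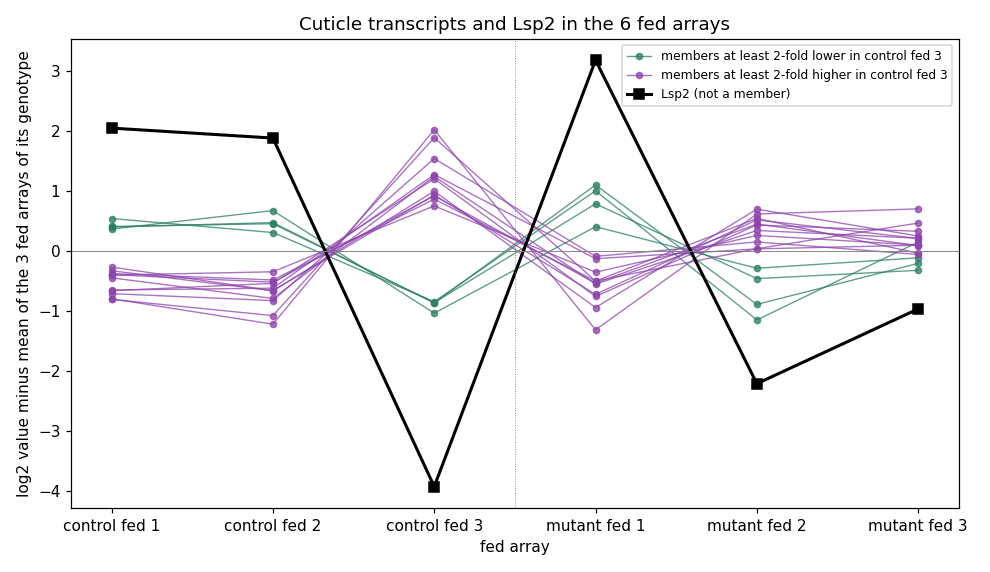
Log2 values of the 15 cuticle genes that differed at least 2-fold between control fed replicate 3 and the other 2 control fed arrays, and of Lsp2, in the 6 fed arrays, each minus its mean in the 3 fed arrays of the same genotype. The 11 genes that are high in control fed replicate 3 all lie below 0 in mutant fed replicate 1, the 4 low ones all lie above 0 there, and Lsp2 runs opposite to the 11 genes in control fed replicate 3 and mutant fed replicate 1.

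Among the 15 Tweedle genes, 9 fell and 0 rose with starvation in controls, and 11 fell and 0 rose in the mutants, with medians of -0.566 and -0.710. The shares called were below those of all probe sets in both directions together (60% beside 68.2% in controls, 73.3% beside 75.7% in the mutants), while all calls were falls, which 32.1% and 38.3% of all probe sets showed. By limma 0 of 15 were called for a difference of responses with all arrays, and 2 had an unadjusted p under 0.05, beside 1693 of the 9669 probe sets. TwdlE was called under 4 settings (0.97 to 1.86, among them a floor of 64 and without mutant fed replicate 1). TwdlX was called without control starved replicate 2 (-0.88) and TwdlK without control fed replicate 3 (-0.72). The adjusted p of these calls lay from 0.020 to 0.045. TwdlP read 3685, 3563 and 4710 in control fed and 998, 397 and 764 in control starved arrays (-2.56 ± 0.27), and 4514, 4814 and 3906 in mutant fed and 689, 737 and 927 in mutant starved arrays (-2.50 ± 0.27). Twdlbeta fell by 1.95 (SE 0.14) in controls and 1.90 (SE 0.14) in the mutants, to values that were dim. For these genes the test of the difference between responses gave 0.06 ± 0.39 (adjusted p = 0.95) and 0.05 ± 0.20 (adjusted p = 0.93).

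Other Tweedle genes fell less or were too variable to call. TwdlX fell in both genotypes (-0.87 ± 0.17 and -1.51 ± 0.17), as did TwdlT (-0.57 ± 0.11 and -0.54 ± 0.11), TwdlF (-0.35 ± 0.12 and -0.57 ± 0.12), TwdlY (-0.29 ± 0.11 and -0.52 ± 0.11) and TwdlR (-0.31 ± 0.074 and -0.28 ± 0.074). In controls TwdlF lost its call without control fed replicate 3 (-0.26) or control starved replicate 3 (-0.30), and TwdlY without control fed replicate 1 or 2 or control starved replicate 1 or 3 (-0.31 to -0.22). TwdlQ, dim in the starved arrays, fell in both (-1.89 ± 0.45 and -1.35 ± 0.45), and in the mutants it was not called without mutant fed replicate 1 (-0.80) or mutant starved replicate 3 (-1.26). TwdlE was called in controls alone (-1.93 ± 0.30), and TwdlO (-1.07 ± 0.28), Twdlalpha (-1.04 ± 0.41) and TwdlD (-0.36 ± 0.094, but 0.133 with the series matrix values) in the mutants alone; Twdlalpha lost its call without mutant fed replicate 2 or 3 or mutant starved replicate 1 or 2 (-1.02 to -0.81). TwdlK, TwdlM and TwdlN were called in neither. Without control fed replicate 3, TwdlK (-0.71) and TwdlM (-0.96) were called in the mutants, with unchanged estimates, and in controls they were at 0.01 and -0.17, beside -0.76 ± 0.47 and -1.12 ± 0.60 with all arrays; TwdlM was called in controls without control fed replicate 2 (-1.66). TwdlN read 6062, 2050 and 3001 in control starved and 1896, 1559 and 2571 in mutant starved arrays. Without control fed replicate 3, where it was 6335, its starvation difference in controls was 2.11 and was called (adjusted p = 0.0092), beside 1.10 ± 0.79 (adjusted p = 0.23) with all arrays.

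Neighbours on a chromosome did not always move together. The 65A cluster on arm 3L held 9 measured genes, in the order Lcp65Ag3, Cpr65Au, Lcp65Af, Lcp65Ae, Cpr65Aw, Lcp65Ad, Lcp65Ac, Lcp65Aa and Acp65Aa in the RefSeq annotation, with up to 4 other protein-coding genes between neighbours. With starvation 8 of the 9 fell in controls and all 9 in the mutants, with medians of -1.32 and -1.51. Between starved genotypes 3 of the 9 were lower. Clusters of this size are described gene by gene, beside 32.1% and 38.3% of all probe sets that fell and 3.70% that were lower in starved mutants. At 47E on arm 2R, neighbours split the same way in both genotypes: Cpr47Eb (1.19 ± 0.13 in controls and 2.27 ± 0.13 in the mutants) and Cpr47Ef rose while Cpr47Ec (-1.91 ± 0.38 and -3.03 ± 0.38) and Cpr47Eg (-0.96 ± 0.27 and -1.17 ± 0.27) fell.

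At 49A, also on arm 2R, 1 of 6 genes rose and 1 fell in controls, and 1 rose and 4 fell in the mutants. The gene that rose was Cpr49Ac in both. Beside it, Cpr49Ad read 1295, 498 and 957 in control starved and 288, 345 and 293 in mutant starved arrays. These values did not overlap but the difference was not called (-1.47 ± 0.49, adjusted p = 0.11; 0.049 without control fed replicate 3). At 67F on arm 3L all 3 genes fell in controls, and in the mutants Cpr67Fa1 and Cpr67Fa2 fell while Cpr67Fb was at -0.42 ± 0.20 (adjusted p = 0.073; called without control fed replicate 3 or mutant fed replicate 2). At 78C 2 of 3 fell in controls and all 3 in the mutants, at 76B 2 and all 4 of 4, at 64A 0 and 2 of 4, and at 97E 1 and both of 2. These counts of 2 to 4 genes were not tested against the shares of all probe sets. At 62B Cpr62Bb and Cpr62Bc rose and the dim Cpr62Ba fell in controls, and of the 3 Cpr62Ba alone was called, lower, in the mutants (-0.39 ± 0.069, but 0.035 with the series matrix values). At 84A Ccp84Ac fell in both genotypes and Ccp84Ae in neither.

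**Figure D5:**
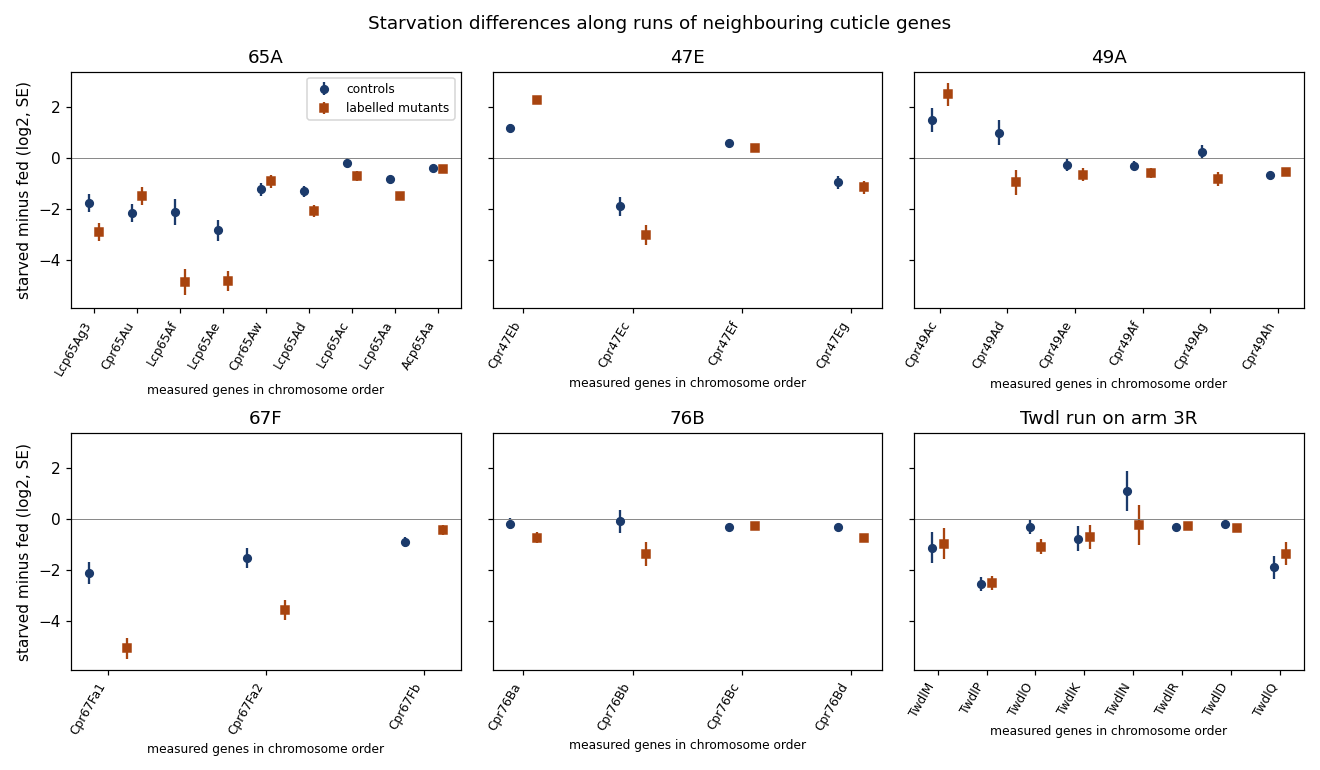
Starved minus fed difference (log2, with the standard error of the fit) of the measured genes of 6 gene clusters in chromosome order, in controls (circles) and labelled mutants (squares). The 65A genes lie below 0 in both genotypes, while at 47E and 49A single genes above 0 stand beside genes below 0.

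Genes that make and harden the cuticle outside these families were read in the same fit. Of 42 listed genes of chitin and cuticle assembly 34 were measured. With starvation 13 rose and 14 fell in controls, and 12 rose and 15 fell in the mutants. These shares (38.2% and 41.2%, 35.3% and 44.1%) lay within 10 points of those of all probe sets (36.1% and 32.1%, 37.5% and 38.3%). The falls included the chitin-binding obst-E (-1.68 ± 0.33 in controls, -2.63 ± 0.33 in the mutants) and obst-A (-1.25 ± 0.26 and -2.66 ± 0.26) and the cuticle genes Vajk3 (-1.41 ± 0.32 and -2.35 ± 0.32) and Vajk2 (-1.36 ± 0.33 and -2.23 ± 0.33). The rises included Cht4 (2.90 ± 0.39 and 3.38 ± 0.39) and Cht9 (1.68 ± 0.44 and 1.25 ± 0.44) of the chitinase family, the chitin-binding obst-F (1.39 ± 0.19 and 1.36 ± 0.19) and Idgf1 (1.29 ± 0.14 and 1.40 ± 0.14), a chitinase-like growth factor. Between starved genotypes 7 of 34 (20.6%, beside 7.61% of all probe sets) were called, all lower in the mutants. They were obst-A, at 3241, 1793 and 2867 in control and 1028, 1502 and 961 in mutant starved arrays (-1.16 ± 0.26), the chitin deacetylase Cda4 (-0.99 ± 0.19), the chitinase Cht7 (-0.93 ± 0.17), the chitin-binding obst-B (-0.76 ± 0.21), Idgf6 (-0.48 ± 0.11), the chitin synthase kkv (-0.37 ± 0.10) and Idgf2 (-0.36 ± 0.083). Cda4 alone was called for a difference of responses (-1.23 ± 0.27, adjusted p = 0.041). In fed larvae 0 of 34 were called and 4 had an unadjusted p under 0.05, beside 1071 of the 9669 probe sets.

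Of 23 listed tanning and pigmentation genes 11 were measured, and 4 (36.4%, beside 3.70% of all probe sets) were lower in starved mutants than in starved controls: the pteridine synthesis gene Pu (-0.54 ± 0.13), yellow-d (-0.48 ± 0.13), the laccase stw (-0.43 ± 0.084) and yellow-f2 (-0.39 ± 0.10). With starvation 3 rose and 4 fell in controls and 3 rose and 5 fell in the mutants, with the dopa decarboxylase Ddc at 0.72 ± 0.17 and 1.33 ± 0.17 and yellow-e at -2.07 ± 0.21 and -1.58 ± 0.21. The shares called with starvation, 63.6% and 72.7%, were near those of all probe sets (68.2% and 75.7%). Of 28 listed moulting regulators 13 were measured, and none was called between genotypes, fed or starved, or for a difference of responses. An unadjusted p under 0.05 was held by 3, 3 and 1 of them, beside 1071, 1955 and 1693 of the 9669 probe sets. With starvation 6 rose and 3 fell in controls and 8 rose and 3 fell in the mutants (69.2% and 84.6% called). Kr-h1, which answers to juvenile hormone, rose by 1.37 and 1.61, the nuclear receptor ftz-f1 by 1.03 and 1.24, and the epidermal transcription factor grh by 0.71 and 0.90 in controls and mutants, while the nuclear receptor Hr38 was at -1.49 ± 0.11 and -1.64 ± 0.11. Of 19 listed third-instar genes 8 were measured; 3 rose and 1 fell in controls and 3 rose and 4 fell in the mutants (50% and 87.5% called), with ng3, a gene of the larval salivary gland, at 1.69 ± 0.23 and 1.42 ± 0.23.

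Tissue markers were read in the same fit. All 6 markers of epidermis and trachea also stand in the list of chitin and cuticle assembly, and those of salivary gland and fat body in that of third-instar genes. With starvation 32.1% of all probe sets fell and 36.1% rose in controls (68.2% called), and 38.3% fell and 37.5% rose in the mutants (75.7% called). Of 5 measured hemocyte markers 4 fell in both genotypes, of 6 markers of epidermis and trachea 3 fell and 2 rose in controls and 4 fell and 1 rose in the mutants, and of 5 midgut markers 1 fell and 1 rose in controls and 2 and 1 in the mutants. Of 2 neuronal markers 1 fell in controls and both in the mutants, of 2 muscle markers 0 and 1, and of 2 salivary gland markers 0 and both. The fat body marker Lsp2, with fed values far apart, was called in neither by limma. Its differences were -3.70 in controls (adjusted p = 0.051) and -2.25 in the mutants (0.20). Between starved genotypes 2 of the 6 epidermal and tracheal markers were lower (obst-A and kkv, both counted above), beside 3.70% of all probe sets. Of the 5 hemocyte markers 1 was lower (Pxn, -0.41 ± 0.10), and none of the 12 markers of the other tissues was called. The part of a changed share of epidermal RNA in the cuticle differences was not tested.

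The 29 cuticle genes outside the dChip table, which holds probe sets with Present calls, could be read in the series matrix, whose scale differs. In 17 of them the highest of the 12 values was under 100, as in 12 of the 76 others; the median of the highest values was 62.9 beside 1041. Of the Edg genes, Edg91 was at 346 to 768, while Edg78E and Edg84A reached at most 45.1 and 53.0. Cpr65Av, a further gene of the 65A cluster, read 1165, 1536 and 3037 in control fed, 1294, 2382 and 1920 in mutant fed, 1391, 501 and 1167 in control starved and 194, 299 and 268 in mutant starved arrays. All mutant starved values were the lowest, but limma did not call the starved genotypes apart (-1.90, adjusted p = 0.089). Between starved genotypes 0 of the 29 were called, beside 187 higher and 189 lower of 18769 probe sets. Between fed genotypes (20 and 43) and for the difference of responses (16 and 10) it was also 0. Among the 29, 4 rose and 1 fell with starvation in controls and 2 rose and 1 fell in the mutants by limma on the series matrix, beside 18.3% higher and 10% lower, and 19.3% and 12.2%, of its probe sets. TwdlW rose in both genotypes, from 57, 9.3 and 33 to 251, 188 and 210.4 in controls (2.79, adjusted p = 0.0053) and from 17.2, 73.8 and 28.8 to 179, 123 and 168 in the mutants (2.22, adjusted p = 0.014), unlike the 15 measured Tweedle genes. The other rises were those of Cpr49Aa (1.00), Cpr65Eb (1.59) and Cpr73D (1.44) in controls and Cpr47Ee (1.05) in the mutants, all with values under 100. The falls were those of Cpr65Ea in controls (-1.74) and Cpr65Av in the mutants (-2.86). Control fed replicate 3 also stood apart here. TwdlB read 23, 25.9 and 1237 in the control fed arrays, TwdlH 173, 184 and 2235 and TwdlL 244, 315 and 2357, and in the other 9 arrays the highest values of these 3 genes were 68.6, 323.5 and 379.2. These 3 were chosen after their values were seen.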

How the data were processed

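The authors deposited a table of linear intensity values, which per the file headers were normalized with dChip and cover the probe sets called Present, and a series matrix of intensity values whose computation is not given in the sources used here. Each of the 12 columns correlated best with its own sample across the 2 tables. Values of the 9669 probe sets were raised to a floor of 16 (0 of 912 cuticle values lay below it), taken to log2 and fitted with limma 3.58.1 in R 4.3.3 (lmFit and eBayes, 1 mean per group over 12 arrays); Benjamini-Hochberg adjustment ran over the whole table in each of 5 contrasts. Simulated data with known changes served to test the code.

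The members and gene lists were chosen with earlier results of these data known, so counts of the limma fit over all 12 arrays stand beside those of all probe sets and no list was tested. Counts of cuticle genes under the alternatives stand alone, save those with the series matrix values. Of the rule's probe sets 5 with several symbols were left out of the table. Named were up to 12 rises and 12 falls per contrast, all genes of the small families and small clusters, and up to 4 called genes per list. Chromosome arms and gene order come from RefSeq (Release 6 plus ISO1 MT). Protein sequences, and with them Rebers-Riddiford classes and identities, were not used here. The number of arrays limits the precision. Alternatives were the series matrix, other floors, quantile normalization, median centring, a filter on dim probe sets, array weights, a replicate block, the compared groups alone, a 1.5-fold minimum and leaving out arrays.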

Additional observations from a re-analysis of the deposited data

Results flagged for a closer look

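The starvation responses of 6 cuticle genes differed between the genotypes by limma's test of the difference. The response in labelled mutants minus that in controls was -2.96 for Cpr67Fa1, -1.93 for Cpr78Cc, -1.09 for Cpr11A, -0.68 for Lcp65Aa, 1.09 for Cpr47Eb and 1.00 for Cpr67B (log2). All 6 lost the call with the series matrix values, where 16 of 18769 probe sets were called higher and 10 lower. With 1 array left out, 4 of the 6 lost the call. Dixon's test for outlying samples was not applied to groups of 3 arrays.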

How the results depend on the processing

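With the series matrix values 26 of 76 cuticle genes were called for starvation in controls (2 higher, 24 lower) and 32 in the mutants (2 and 30), not 44 and 56. Of its 18769 probe sets, 18.3% were higher and 10% lower in controls, and 19.3% and 12.2% in the mutants. Between starved genotypes 5 cuticle genes were called (2 and 3), not 13, and for the difference of responses 0, not 6. Over all its probe sets 187 were higher and 189 lower between starved genotypes, and 16 and 10 for the difference. In the dChip table these were 378 and 358, and 176 and 74, of 9669. Cpr62Ba (0.035), Cpr30B (0.0) and TwdlD (0.133) lost the sign of their fall in the mutants with the series matrix values. Over all probe sets the median difference went from -0.042 to -0.170 for starvation in the mutants with median centring, and from 0.031 to 0.137 in controls with the series matrix values. The share of those calls that were higher went from 49.5% to 41.6% and from 52.9% to 64.6%. Without the dimmest 40% of probe sets 45 of the 76 genes were measured, and 25 and 34 of them were called for starvation in controls and mutants. Array weights gave 2 calls between fed and 36 between starved genotypes and 27 for the difference of responses, and gene-by-gene weights, added after seeing the data, 1, 35 and 25. The compared groups alone gave 7 between starved genotypes, and a floor of 64 gave 1 between fed genotypes. Without the 2 arrays of lowest weight (control fed replicate 3 and mutant starved replicate 2, chosen after seeing the data) 3 were called between fed genotypes and 20 for the difference. Leaving out 1 array at a time gave 0 to 3 calls between fed and 5 to 20 between starved genotypes, 39 to 47 and 49 to 63 for starvation in controls and mutants, and 2 to 13 for the difference. Some settings hold fewer genes or samples, and the cause of these changes was not tested. Counts of cuticle genes under the settings other than the series matrix values have no counts over all probe sets beside them. A change particular to cuticle genes cannot be read from them. The replicate block gave 3 calls for the difference and 9 between starved genotypes. Deviations of same-numbered arrays correlated at -0.396 to 0.283. In groups of 3 arrays such correlations cannot decide whether samples of equal number were handled together, and this was not tested in another way. Of the called genes, 22 of 44, 28 of 56, 4 of 13 and 0 of 6 lost no call under the alternatives that measured them (starvation in controls, in mutants, starved genotypes, difference); 4 of the 22 and 6 of the 28 were not measured without the dimmest probe sets.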
